A study of Mus musculus with 39 samples.

Results

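Muscle stem cells, the satellite cells of skeletal muscle, were isolated from mouse muscle with the transcription inhibitor alpha-amanitin present during the isolation, or with DMSO in its place. The comparison takes 4 libraries with alpha-amanitin and 4 with DMSO, which are 8 of the 39 libraries of the series, and it covers all genes in the table. Both groups held total polyadenylated RNA of purified cells that had not been given the uracil analogue 4-thiouracil (4tU). An isolation time of 6 h is recorded for the libraries of RNA labelled during isolation, and none for these 8. Strain, genotype, age and dose of the inhibitor are not given for these libraries in the sources used here. Nothing states that replicates came from separate animals, so p-values cover no more than the variation among these libraries, and that may be technical. Other groups of the series were used to class genes. They are RNA labelled with 4tU during the isolation and pulled down, total RNA of isolated stem cells and total RNA of hindlimb muscle from the labelling experiment in Pax7CreER/+ mice carrying UPRT-HA, and stem cells of unfixed mice (3 libraries) against those of mice fixed with 1% paraformaldehyde (4 libraries).

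Alpha-amanitin, a mushroom toxin, binds RNA polymerase II and stalls the making of messenger RNA. When synthesis stops, a transcript's level follows its decay, so short-lived messages are lost first and stable ones make up a growing share of what is left. Satellite cells rest in the tissue under the fibre's basal lamina, are marked by the transcription factor Pax7, and are known to switch on stress and immediate early genes while muscle is digested and sorted. Each library was made from 500 pg of RNA, whatever the number of cells, so all levels here are relative to the library. A change in RNA per cell would not be seen. Fewer cells of a type and less RNA per cell cannot be told apart.

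The alpha-amanitin libraries held 35417501 to 54214947 recovered reads each, against 24189620 to 33255988 in the DMSO libraries. Replicate 1 of the alpha-amanitin group stood apart from its other 3 libraries. Across genes its mean correlation was 0.889 with the other alpha-amanitin libraries and 0.940 with the DMSO libraries, whereas replicates 2 to 4 had 0.959 to 0.961 and 0.861 to 0.867. Genes of smell, taste and pheromone receptors, which serve sensory neurons, were read as a measure of low-level background. Their median over 197 genes was 2.03, 0.176, 0.0752 and 0.0742 RPKM (reads divided by gene length and by library size) in alpha-amanitin replicates 1 to 4, and 1.07, 1.72, 1.83 and 1.58 RPKM in DMSO replicates 1 to 4. Replicates 2 to 4 with alpha-amanitin thus lay below every DMSO library, and replicate 1 lay above all of them. In the same order, 13353, 11483, 11530 and 11580 genes reached 1 RPKM with alpha-amanitin, and 11967, 13015, 13211 and 12914 with DMSO. The part of this background in the results was not tested, and results are given with and without replicate 1.

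**Figure D1:**
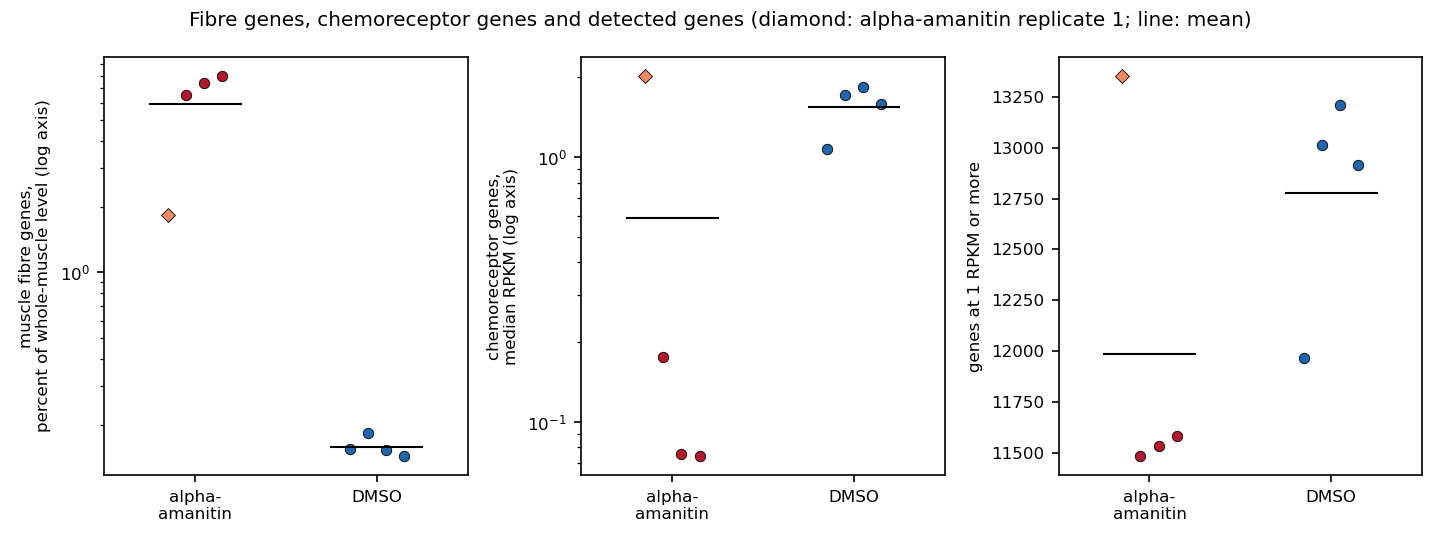
Level of muscle fibre genes (median over 46 genes, percent of their whole-muscle level, log axis), median RPKM of 197 chemoreceptor genes (log axis) and number of genes at 1 RPKM or more in each alpha-amanitin and DMSO library. The diamond is alpha-amanitin replicate 1 and the lines are means of 4; fibre genes lie higher in all 4 alpha-amanitin libraries, while the other panels separate replicate 1 from replicates 2 to 4.

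The first question was how much of the difference is muscle fibre RNA carried into the sorted cells. Fibre genes are made by the mature syncytial fibres and not by resting stem cells. Relative to whole muscle, the median fibre gene stood at 1.83, 6.48, 7.36 and 7.96% in alpha-amanitin replicates 1 to 4, and at 0.154, 0.182, 0.152 and 0.143% in DMSO replicates 1 to 4. The groups did not overlap, and replicate 1 held the least fibre RNA of its group. Of all reads, fibre genes took 3.54 ± 1.33% in alpha-amanitin libraries, against 0.209 ± 0.0106% in DMSO libraries (SD, n = 4 each, exact two-sided permutation p = 0.0286, the smallest that 4 against 4 can give, and 0.0286 after Benjamini-Hochberg adjustment over 4 shares).

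Genes were then split by a ratio that uses none of the 8 libraries. Those with a mean in whole muscle at least 2 times that in isolated stem cells are called muscle-enriched below, and the others the remaining genes. Muscle-enriched genes made up 31.2 ± 3.46% of the reads in alpha-amanitin libraries, against 20.9 ± 0.508% in DMSO libraries (SD, n = 4 each, exact permutation p = 0.0286). A gene was called at an adjusted p under 0.05 in limma, and its log2 change is alpha-amanitin over DMSO on the log2(RPKM + 0.5) scale, which understates the change of low genes. Of all 13710 genes tested, 33.9% were called higher and 10.3% lower (44.2% in all), and the median log2 change was 0.28. All 4 alpha-amanitin libraries lay above all 4 DMSO libraries in 17.9% of genes and below them in 9.88%. Among 4664 muscle-enriched genes, 3079 rose and 16 fell, with a median of 0.82. Among the 9046 remaining genes, 1567 (17.3%) rose and 1396 (15.4%) fell, with a median of -0.08. Muscle-enriched genes thus made up 66.3% of the genes that rose, 1.13% of those that fell and 34% of those tested.

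The split at 2-fold did not fall at a break in the data. The 324 genes just inside it, with ratios of 2 to 2.2, had a median log2 change of 0.49, and the 315 genes just outside, at 1.8 to 2, had 0.44. Genes on both sides can hold RNA of several sources. Without alpha-amanitin replicate 1, 13477 genes were tested, 54.7% were called higher and 24.4% lower (79.1% in all). In the remaining genes the counts were then 3240 and 3233 of 8823, and in muscle-enriched genes 4127 and 60 of 4654. Of the genes called with all 8 libraries, 99.9% of those higher and 99.5% of those lower were also called without replicate 1, where they made up 63.0% and 42.7% of the calls.

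The size of every change rests on how the libraries are scaled, because the authors' scaling factors ran from 0.917 to 1.54 with alpha-amanitin and from 1.25 to 1.66 with DMSO. The median log2 change over all genes was 0.28 with the deposited values, 0.11 with median-of-ratios factors, 0.50 with such factors from the remaining genes, -0.24 with library sizes from all reads, and -1.20 with libraries scaled to mitochondrially encoded genes. It was 0.11 after a trend over GC content had been removed, 0.84 after the chemoreceptor level had been subtracted, and 0.15 after whole-muscle RNA had been subtracted at each library's fibre level. With the mitochondrial scaling the medians of 40 of the 46 gene lists changed sign, and with all reads those of 17 did. Changes below are on the deposited scale and are read against its all-gene median.

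**Figure D2:**
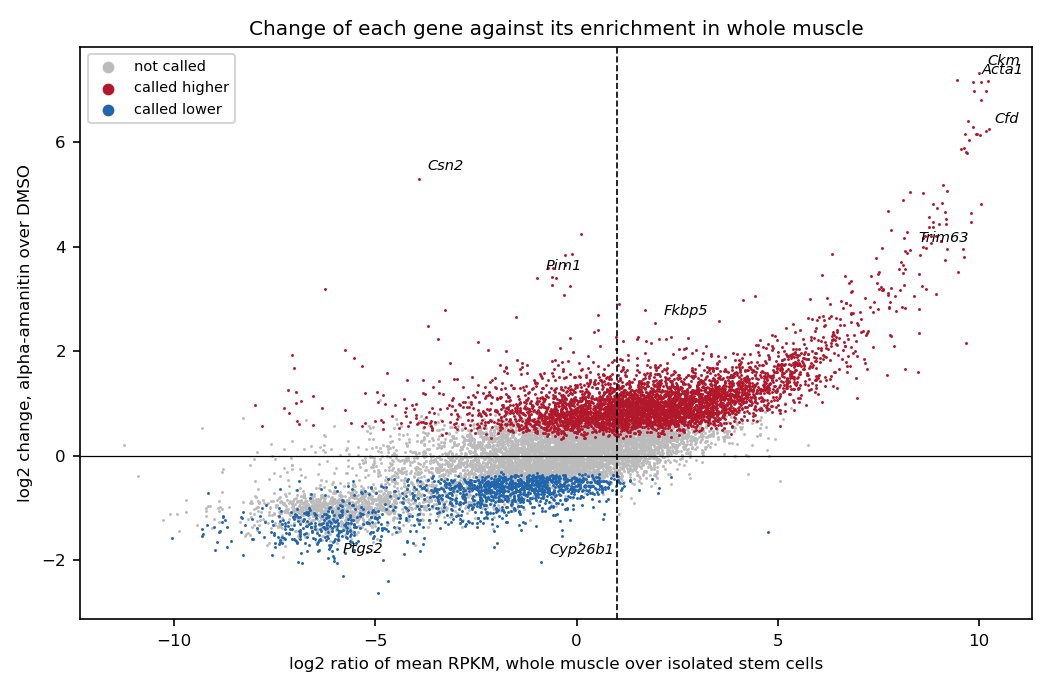
Log2 change of each tested gene, alpha-amanitin over DMSO, against the log2 ratio of its mean RPKM in whole muscle over isolated stem cells; the dashed line marks a ratio of 2 and colours give the call. Fibre genes such as Ckm and Acta1 (log2 changes of 7.33 and 7.15) lie at the upper right, and Csn2 and Pim1 rise at ratios below 1.

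Fibre genes showed the steepest rises. Ckm, the creatine kinase of muscle, had 255, 1186, 1225 and 1371 RPKM with alpha-amanitin, against 6.21, 7.58, 2.80 and 3.79 RPKM with DMSO. Myh4, a fast myosin heavy chain, had 162, 530, 685 and 907 RPKM with alpha-amanitin, against 2.56, 4.87, 2.14 and 2.25 RPKM with DMSO. Both genes separated the groups fully, and replicate 1 was the lowest alpha-amanitin library in both. Of 46 fibre genes tested, 45 rose and none fell, with a median of 4.19 (background 33.9% higher), and without replicate 1 all 46 rose. With whole-muscle RNA subtracted, 15 fibre genes were still called higher and 2 lower, with a median of 1.845. Ckm stood at 8.65 there, against 7.33 on the deposited scale. The subtraction thus did not remove all fibre RNA, and a gene called higher after it cannot be taken as free of such RNA. The 6 muscle-enriched genes with the largest rises were Ckm, Myh4, Car3 (a carbonic anhydrase of slow fibres and fat), Mybpc2 (a myosin-binding protein of fast fibres), Acta1 (skeletal muscle actin) and Mylpf (a fast myosin light chain), at log2 changes of 6.98 to 7.33. Falls among muscle-enriched genes were small. Abcc9, a subunit of ATP-gated potassium channels, was lowest of those named by the rule (-0.62 ± 0.16, SE), followed by Sppl2a, Rbbp5, the ubiquitin ligase gene Ube3a and Klhl24, which also lies on the ubiquitin pathway, at -0.59 to -0.48.

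Other groups rose by sizes that can be set on the scale of whole muscle. The source of their RNA was not tested. For each gene at 10 RPKM or more in whole muscle, the difference of the group means was divided by the whole-muscle level. The median was 5.44% for fibre genes, 7.64% for erythroid genes, 7.86% for adipocyte genes and 8.38% for nuclear genes of oxidative phosphorylation. It was 12.5% for mitochondrial ribosomal proteins, 16.7% for macrophage and immune genes, 19% for proteasome subunits and 68% for cytosolic ribosomal proteins. The excess over DMSO, measured against whole muscle, was thus far larger for ribosomal than for fibre genes. Cfd, the adipose serine protease adipsin, had 25.1, 113, 133 and 125 RPKM with alpha-amanitin, against 0.692, 0.812, 0.526 and 0.483 RPKM with DMSO. Adipoq, the fat hormone adiponectin, had 2.60, 9.76, 10.7 and 10.04 RPKM with alpha-amanitin, against 0.185, 0.243, 0.149 and 0.148 RPKM with DMSO. Both were higher in every alpha-amanitin library. Adipocyte genes rose in 15 of 17 cases with none lower (background 33.9% higher), with a median of 1.48, and of 0.11 with libraries scaled to mitochondrially encoded genes. With whole-muscle RNA subtracted, 2 of the 17 were called higher.

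Markers of the other cells of muscle moved with the fibre genes in replicates 2 to 4. Erythroid genes rose in 8 of 8 cases, fibro-adipogenic progenitor genes in 13 of 24 with none lower, macrophage and immune genes in 12 of 25 with 1 lower, and endothelial genes in 9 of 23 with 1 lower. Over all genes tested 33.9% were higher, so the endothelial share was near the background. Of 14 endothelial genes that are not muscle-enriched 1 rose, against 17.3% of all remaining genes. With whole-muscle RNA subtracted, 0 of 8 erythroid, 10 fibro-adipogenic, 8 macrophage and 6 endothelial genes were called higher, where 24.7% of all genes were higher and 11.5% lower. The medians on the deposited scale were 1.37, 0.73, 0.64 and 0.51 in the same order, all below 0 with the mitochondrial scaling, and the endothelial one was also -0.00 with library sizes from all reads. Summed over the list, macrophage and immune genes had 295, 821, 788 and 717 RPKM with alpha-amanitin, against 321, 259, 304 and 301.3 RPKM with DMSO. Endothelial genes summed to 775, 1720, 1741 and 1595 RPKM with alpha-amanitin, against 817, 691, 733 and 727 RPKM with DMSO. In both sums replicate 1 lay within the DMSO range and replicates 2 to 4 lay above it. Means under 1 RPKM were found for 3 macrophage and 1 endothelial marker with alpha-amanitin, and for 3 macrophage and 0 endothelial markers with DMSO. Their part in the results for other genes was not tested.

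Respiratory chain genes are abundant in fibres. Of 102 nuclear oxidative phosphorylation genes, 99 rose and none fell (background 33.9% higher and 10.3% lower). Their median was 1.53, turning to -0.05 with the mitochondrial scaling. Of the 102 genes 101 are muscle-enriched, a class of which 66.0% rose. With whole-muscle RNA subtracted, 46 of the list were called higher, against 24.7% of all genes. Cox6a2, the subunit of cytochrome oxidase used in heart and skeletal muscle, had 34.7, 143, 196 and 192 RPKM with alpha-amanitin, against 1.48, 1.61, 0.568 and 0.734 RPKM with DMSO, with no overlap. Mitochondrially encoded genes are copied by the organelle's own polymerase, which alpha-amanitin does not target. All 10 tested rose (background 33.9% of all genes and 66.0% of muscle-enriched genes). They made up 0.991 ± 0.115% of the reads in alpha-amanitin libraries, against 0.464 ± 0.0836% in DMSO libraries (SD, n = 4 each, exact permutation p = 0.0286). ND1, a subunit of complex I, had 1061, 2153, 2083 and 2074 RPKM with alpha-amanitin, against 639, 444, 328 and 338 RPKM with DMSO. Its lowest alpha-amanitin value was replicate 1, which still exceeded all DMSO libraries. These genes are also muscle-enriched (ND1 29.3-fold). After whole-muscle RNA had been subtracted at the fibre level, 7 of the 10 were still called higher, against 24.7% of all genes tested in that setting. The list's median was 0.88, and ND1 stood at 1.5 (adjusted p = 0.00658 in limma). The same subtraction left 15 fibre genes called higher.

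Genes for protein synthesis and turnover rose in large numbers. Cytosolic ribosomal protein genes rose in 68 of 84 cases and mitochondrial ribosomal ones in 66 of 76, with none lower. Proteasome subunits rose in 37 of 43 and RNA polymerase II subunits in 10 of 13, again with none lower, against 33.9% of all genes higher. The medians were 0.87, 1.16, 1.03 and 1.01, and each was below 0 with the mitochondrial scaling. Psmb3, a proteasome core subunit, had 26.7, 64.5, 63.9 and 60.2 RPKM with alpha-amanitin, against 21.9, 15.6, 13.3 and 14.6 RPKM with DMSO. Replicate 1 lay just above the highest DMSO library and the other 3 lay far above it. Of the cytosolic ribosomal genes, 67 were among the remaining genes and 51 of them rose, against 17.3% of all remaining genes. Muscle-enriched were 75 of 76 mitochondrial ribosomal genes, 43 of 43 proteasome subunits and 11 of 13 polymerase II subunits. Of all muscle-enriched genes 66.0% rose. With whole-muscle RNA subtracted, 60 cytosolic ribosomal, 45 mitochondrial ribosomal, 29 proteasome and 9 polymerase II genes were called higher, against 24.7% of all genes. In that setting 1 mitochondrial ribosomal gene was lower, and 15 fibre genes were still called higher.

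The gene of the subunit that alpha-amanitin binds was not called. Polr2a encodes the largest subunit of RNA polymerase II, whose protein alpha-amanitin is known to mark for degradation. Its level was 10.7, 10.5, 13.3 and 15.0 RPKM with alpha-amanitin, against 22.8, 15.5, 14.1 and 14.8 RPKM with DMSO. The groups overlapped and the gene was not called (-0.41 ± 0.20, SE, adjusted p = 0.108 in limma), though it was with the GC trend removed (-0.67, adjusted p = 0.0143). Polr2d, a subunit of the enzyme's stalk, had 33.9, 57.6, 58.8 and 54.1 RPKM with alpha-amanitin, against 27.2, 20.6, 15.2 and 18.3 RPKM with DMSO, and rose by 1.31 ± 0.24. Polr2k rose by 0.89 ± 0.19. In contrast Polr1a, the largest subunit of RNA polymerase I, fell by 0.86 ± 0.14, with 3.31, 3.13, 3.73 and 3.88 RPKM with alpha-amanitin, against 8.06, 6.78, 6.14 and 6.17 RPKM with DMSO. Of 15 subunits of polymerases I and III, 6 rose and 3 fell (background 33.9% and 10.3%), and the 3 that fell (Polr1a, Polr3a and Polr3b) encode the large catalytic subunits. Of 36 elongation and P-TEFb genes, 13 rose, a share near the 33.9% of all genes, and 2 fell, Supt6 (-0.64) and Ccnt2 (-0.53).

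Among the remaining genes, the deepest fall named by the rule was that of Cyp26b1. The gene encodes an enzyme that breaks down retinoic acid (chromosome 6, 84571414 to 84593908, mm10). It had 0.762, 1.78, 1.69 and 2.01 RPKM with alpha-amanitin, against 7.06, 6.05, 8.43 and 9.58 RPKM with DMSO. Rarb, a retinoic acid receptor that is itself a classical target of the hormone (chromosome 14, 16430842 to 16575472), had 2.63, 4.20, 4.64 and 4.22 RPKM with alpha-amanitin, against 10.9, 8.59, 9.27 and 9.55 RPKM with DMSO. Both genes separated the groups, and replicate 1 was the lowest library for each. Cyp26b1 fell by 2.04 ± 0.23 (SE, adjusted p = 5.59e-04) and Rarb by 1.21 ± 0.18 (adjusted p = 0.00228) in limma. Of 15 retinoic acid and nuclear receptor genes tested, 2 fell, namely these, and 6 rose (background 10.3% lower and 33.9% higher). The list's median was 0.49 and turned to -0.06 with the GC trend removed and -1.01 with the mitochondrial scaling.

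The start regions of both genes are shown because they fell together. They come from RefSeq on build GRCm38.p6, the build known as mm10, and 89 of the 118 genes described here had an entry. Each runs from 250 bases before the annotated start to 50 bases after it, 5′ to 3′ on the gene's own strand (minus for both). Capitals mark the direct repeat of GGTTCA and AGTTCA, 5 bases apart, which is known to bind retinoic acid receptors, in Rarb at base -53, and TATAAA, the TATA box, in Cyp26b1 at base -139. Bases are counted from the RefSeq start. The Cyp26b1 model given above begins at 84593908, upstream of its RefSeq start, so TATAAA lies nearer to the model's start.
Rarb, chr14:16575427-16575726: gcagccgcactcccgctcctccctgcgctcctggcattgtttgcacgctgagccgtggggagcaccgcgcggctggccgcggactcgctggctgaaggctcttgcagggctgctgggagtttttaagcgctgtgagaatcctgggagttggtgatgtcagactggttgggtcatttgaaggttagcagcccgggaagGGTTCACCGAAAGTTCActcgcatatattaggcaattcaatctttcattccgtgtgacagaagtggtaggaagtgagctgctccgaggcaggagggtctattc
Cyp26b1, chr6:84593761-84594060: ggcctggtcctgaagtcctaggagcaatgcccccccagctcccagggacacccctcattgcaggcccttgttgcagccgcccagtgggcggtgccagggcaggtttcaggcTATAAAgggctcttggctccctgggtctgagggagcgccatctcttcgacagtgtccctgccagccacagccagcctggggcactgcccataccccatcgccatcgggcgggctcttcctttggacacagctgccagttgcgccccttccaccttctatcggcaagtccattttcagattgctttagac
The repeat was searched on both strands and stood in 2 of 32851 promoters (0.00609%), and TATAAA in 4473 (13.6%). The repeat was not found in the Cyp26b1 window. Its letters are those of the Rarb element itself, so a match in Rarb was given beforehand. Other forms of the element were not searched. The count of 2 is thus no rate for retinoic acid elements at large, and the absence from Cyp26b1 tells nothing of them. A match describes letters only.

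Ptgs2 was the next deepest fall. It encodes the inducible cyclooxygenase, and its message is a textbook case of rapid decay through AU-rich elements. It had 2.12, 5.59, 4.504 and 4.99 RPKM with alpha-amanitin, against 18.4, 18.1, 18.7 and 17.02 RPKM with DMSO, and fell by 2.02 ± 0.25 (SE, adjusted p = 8.38e-04 in limma). Every alpha-amanitin library was below every DMSO library, and replicate 1 was lowest. In the comparison of living with fixed cells Ptgs2 was higher in unfixed cells (log2 2.79, adjusted p = 0.00858 in limma). In RNA labelled during isolation it was lower than in total RNA (-1.64, adjusted p = 0.00378 in limma). Il6, another short-lived message of inflammation, fell by 0.76, whereas Csf1 (1.13), Tgfb1 (1.13) and the chemokine gene Ccl8 (1.66) rose. Over 25 cytokine, chemokine and prostaglandin genes, 6 rose and 2 fell, both below the shares of all genes tested (33.9% and 10.3%).

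On the deposited scale, zinc finger genes fell more often than they rose. Zim1, a zinc finger gene of the imprinted Peg3 domain (chromosome 7, 6675443 to 6696450), had 3.21, 2.77, 2.85 and 3.42 RPKM with alpha-amanitin, against 12.7, 12.4, 12.7 and 11.6 RPKM with DMSO. Its neighbour Peg3, an imprinted zinc finger gene that was chosen after its values were seen, had 24.1, 22.1, 27.02 and 29.5 RPKM with alpha-amanitin, against 68.6, 57.9, 56.7 and 56.8 RPKM with DMSO. Replicate 1 lay among the other alpha-amanitin libraries for both genes, with no overlap between the groups. Zim1 fell by 1.85 ± 0.12 (adjusted p = 6.78e-05), Zfp146 by 1.54 ± 0.13 (adjusted p = 1.02e-04) and Peg3 by 1.21 ± 0.17 (adjusted p = 0.00198) in limma. Of 277 genes named Zfp, 66 fell and 34 rose, against 10.3% lower and 33.9% higher over all genes tested. Their median of -0.20 was above 0 with the ratio scaling on remaining genes (66 higher, 38 lower) and with the chemoreceptor level subtracted (36 higher, 5 lower). In each of 7 settings described further on, 5 of them fell and 4 rose, against 0.598% and 9.43% of all genes tested. Many of these genes are low: 123 had a mean under 1 RPKM with alpha-amanitin and 89 with DMSO.

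Single genes of cholesterol synthesis and export fell as well. Hmgcs1, the synthase at the entry to cholesterol synthesis, had 26.1, 37.3, 38.9 and 40.8 RPKM with alpha-amanitin, against 119, 75.8, 75.04 and 78.5 RPKM with DMSO. It was lower in all 4 alpha-amanitin libraries, and DMSO replicate 1 was the highest library. Hmgcs1 fell by 1.26 ± 0.23. The transporter gene Abca1, which exports cholesterol, fell by 1.14 ± 0.15, and the related Abca8b by 1.21 ± 0.18. Both transporters were chosen after their values were seen.

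Receptors and nuclear factors of the resting stem cell were among the called falls. Notch2, a receptor of the pathway that holds satellite cells quiescent, had 8.98, 6.67, 9.26 and 9.43 RPKM with alpha-amanitin, against 22.8, 17.2, 17.4 and 15.5 RPKM with DMSO. Rbpj, the DNA-binding partner of Notch, had 12.5, 16.2, 17.8 and 18.7 RPKM with alpha-amanitin, against 42.0, 30.4, 30.1 and 31.4 RPKM with DMSO. Neither gene overlapped between the groups. Notch2 fell by 1.04 ± 0.18 and Rbpj fell by 1.02 ± 0.19. Among 25 Notch genes, 9 rose and 3 fell, shares near those of all genes tested (33.9% and 10.3%). The risers included the target gene Hes1 (1.45), the ligand gene Jag2 (1.17) and the glycosyltransferase gene Rfng (1.42), and the third gene that fell was the protease gene Adam10 (-0.74). The list's median was 0.41, below 0 with library sizes from all reads and with the mitochondrial scaling. Megf10, an engulfment receptor of satellite cells, had 15.2, 16.9, 19.3 and 20.8 RPKM with alpha-amanitin, against 45.6, 34.7, 32.5 and 33.8 RPKM with DMSO, and fell by 1.00 ± 0.18. Prox1, a homeobox gene, fell by 1.18 ± 0.20 and the leptin receptor gene Lepr by 1.16 ± 0.11, both chosen after their values were seen. Frem1, an extracellular matrix gene with 0.0421 RPKM in whole muscle and 6.12 RPKM in isolated stem cells, fell by 1.27 ± 0.13.

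Other remaining genes with deep falls came from immunity, transport and ubiquitin pathways. Gbp2b, an interferon-induced GTPase, had 1.02, 1.65, 1.92 and 2.39 RPKM with alpha-amanitin, against 6.21, 6.27, 6.78 and 6.64 RPKM with DMSO, and fell by 1.67 ± 0.19. Slfn5, of the interferon-regulated Schlafen family, had 4.03 to 5.54 RPKM with alpha-amanitin, against 12.8 to 14.9 RPKM with DMSO, and fell by 1.43 ± 0.14. Neither gene overlapped between the groups. The RNA sensor genes Ddx58 (-0.77) and Ifih1 (-0.63) fell too, yet over 25 interferon-induced genes 4 rose and 3 fell, against 33.9% and 10.3% of all genes (median 0.06, below 0 with all reads, median of ratios, the mitochondrial scaling and the GC trend removed). Further falls were those of Clcn5, a chloride transporter of endosomes (-1.37), Elf2, an ETS transcription factor (-1.35), Usp9x, a deubiquitinase (-1.28), Ncoa7 (-1.26) and Slc7a2, a transporter of cationic amino acids (-1.22).

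NF-kB genes went both ways. Rel, the c-Rel subunit, had 7.26, 5.54, 6.49 and 6.45 RPKM with alpha-amanitin, against 12.3, 12.2, 11.5 and 11.9 RPKM with DMSO, and fell by 0.85 ± 0.13 with no overlap. The feedback genes Nfkbiz (-0.81), Tnfaip3 (-0.80) and Cyld (-0.68) and the survival genes Birc3 (-0.77) and Birc2 (-0.58) fell. The p65 gene Rela (1.5), Nfkb1 (0.86) and the inhibitor genes Nfkbia (0.89) and Nfkbib (0.91) rose, as did Otud1 (1.60). In all 5 rose and 6 fell among 19 (background 33.9% and 10.3%), with a median of 0.23 that was below 0 with all reads, the mitochondrial scaling and the GC trend removed. Rela was no longer called with the GC trend removed (adjusted p = 0.0549 in limma).

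Pim1 gave the most regular rise among the remaining genes. It encodes a serine/threonine kinase that is a known target of cytokine signalling through STAT factors, and its message is short-lived. On chromosome 17 (29490812 to 29495445) it had 67.0, 65.1, 70.3 and 79.9 RPKM with alpha-amanitin, against 6.49, 6.33, 6.26 and 5.77 RPKM with DMSO. Alpha-amanitin replicate 1 lay within the range of its group, and the rise was 3.40 ± 0.15 (SE, adjusted p = 9.82e-06 in limma), or 10.6-fold. Pim1 was also higher in the RNA labelled during isolation (1.18, adjusted p = 0.02) and in unfixed cells (4.06, adjusted p = 0.00156), 2 comparisons that share no library with this one.

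Csn2 and Csn1s2a, casein genes whose proteins make up milk, were among the steepest rises. Csn2, beta-casein (chromosome 5, 87692624 to 87699421), had 7.19, 39.6, 36.7 and 26.9 RPKM with alpha-amanitin, against 0.0228, 0.162, 0.117 and 0.0995 RPKM with DMSO. Csn1s2a, an alpha-S2-like casein (chromosome 5, 87774567 to 87788797), had 12.0, 34.6, 32.4 and 21.6 RPKM with alpha-amanitin, against 1.61, 2.39, 2.74 and 1.8 RPKM with DMSO. For both, every alpha-amanitin library was above every DMSO library, and replicate 1 was the lowest of its group. Csn2 rose by 5.31 ± 0.45 (adjusted p = 1.15e-04) and Csn1s2a by 3.20 ± 0.31 (adjusted p = 2.53e-04) in limma. Whole muscle held little of either, 0.00662 RPKM of Csn2 and 0.0379 RPKM of Csn1s2a, and isolated stem cells of the labelling experiment held 0.1 and 2.91 RPKM. Whole muscle thus held less of both than any alpha-amanitin library. The source of these transcripts in the alpha-amanitin libraries was not tested.

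Other milk and STAT-linked genes were read after these values were seen. Csn3, kappa-casein, had 0.912, 2.84, 3.01 and 2.27 RPKM with alpha-amanitin, against 0.234, 0.373, 0.333 and 0.309 RPKM with DMSO, and rose by 1.68 ± 0.30. Csn1s1, alpha-S1-casein, had 1.38, 4.19, 4.16 and 3.12 RPKM with alpha-amanitin, against 0.759, 1.55, 2.01 and 1.30 RPKM with DMSO, and was called (0.92, adjusted p = 0.0387 in limma) although replicate 1 lay inside the DMSO range. Csn1s2b had 1.83, 0.102, 0.135 and 0.107 RPKM with alpha-amanitin, against 0.770, 1.29, 1.12 and 1.31 RPKM with DMSO, and Lalba, the milk protein alpha-lactalbumin, 2.27, 1.75, 1.56 and 1.29 RPKM with alpha-amanitin, against 1.01, 2.61, 2.22 and 2.2 RPKM with DMSO. These genes thus shared no single direction across libraries. Socs2, a feedback inhibitor of cytokine signalling named by the rule, had 7.48, 14.1, 13.3 and 12.4 RPKM with alpha-amanitin, against 7.26, 5.48, 5.45 and 5.67 RPKM with DMSO, and rose by 0.90 ± 0.21. Cish, its relative, was not called (0.18 ± 0.21).

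The start regions of both casein genes are shown because these genes rose together. They come from the same RefSeq table, with Csn2 on the minus strand and Csn1s2a on the plus strand. Capitals mark TTCNNNGAA, the letters that STAT factors are known to bind, at base -93 in Csn2 and at base 21 in Csn1s2a. Bases are counted from the RefSeq start. The Csn1s2a model given above begins at 87774567, past the end of its window, so the motif lies upstream of the model's start.
Csn2, chr5:87699376-87699675: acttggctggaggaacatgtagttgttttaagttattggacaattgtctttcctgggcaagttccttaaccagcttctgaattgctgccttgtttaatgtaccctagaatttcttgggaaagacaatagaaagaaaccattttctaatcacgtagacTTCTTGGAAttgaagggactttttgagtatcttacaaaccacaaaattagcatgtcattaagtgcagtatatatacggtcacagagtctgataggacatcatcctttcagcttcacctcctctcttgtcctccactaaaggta
Csn1s2a, chr5:87774200-87774499: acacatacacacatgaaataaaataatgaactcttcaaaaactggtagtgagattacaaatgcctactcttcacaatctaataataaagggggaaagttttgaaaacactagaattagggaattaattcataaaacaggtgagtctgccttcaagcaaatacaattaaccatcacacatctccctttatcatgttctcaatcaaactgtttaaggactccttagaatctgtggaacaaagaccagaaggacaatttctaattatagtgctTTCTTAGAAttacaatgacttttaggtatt
The motif reads the same way on both strands, and 2726 of 32851 promoters (8.30%) hold it. The windows of Csn1s1, Cish and Rarb hold it too, in Rarb inside the retinoic acid repeat printed above, and those of Pim1 and Fkbp5 do not. A match is a description of the letters and not evidence of binding.

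Several regulators of growth and transport followed among the 12 largest rises of the remaining genes. Neu2, a cytosolic sialidase, had 107, 45.1, 71.6 and 96.8 RPKM with alpha-amanitin, against 20.7, 13.5, 7.17 and 8.33 RPKM with DMSO (2.69 ± 0.37). Arf6, a small GTPase of membrane traffic, had 13.2, 32.1, 36.8 and 36.3 RPKM with alpha-amanitin, against 2.29, 3.95, 5.71 and 9.36 RPKM with DMSO (2.42 ± 0.42). Cited2, a transcriptional coregulator, had 33.02, 61.7, 74.5 and 69.7 RPKM with alpha-amanitin, against 6.47, 10.8, 12.5 and 19.2 RPKM with DMSO (2.27 ± 0.35). Neu2 was highest in replicate 1, the others lowest there, and none overlapped. Mtch1, a mitochondrial outer membrane protein, Oaf, the AP-1 repressor Jdp2, the tRNA modifier Yrdc, Ptms and the casein kinase gene Csnk1g2 rose by 2.36 to 2.04. Jund, an AP-1 subunit named for its rise without replicate 1, rose by 2.23 ± 0.49 with 327, 1215, 1367 and 1209 RPKM with alpha-amanitin, against 109, 158, 232 and 334 RPKM with DMSO, where replicate 1 lay just inside the DMSO range.

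**Figure D3:**
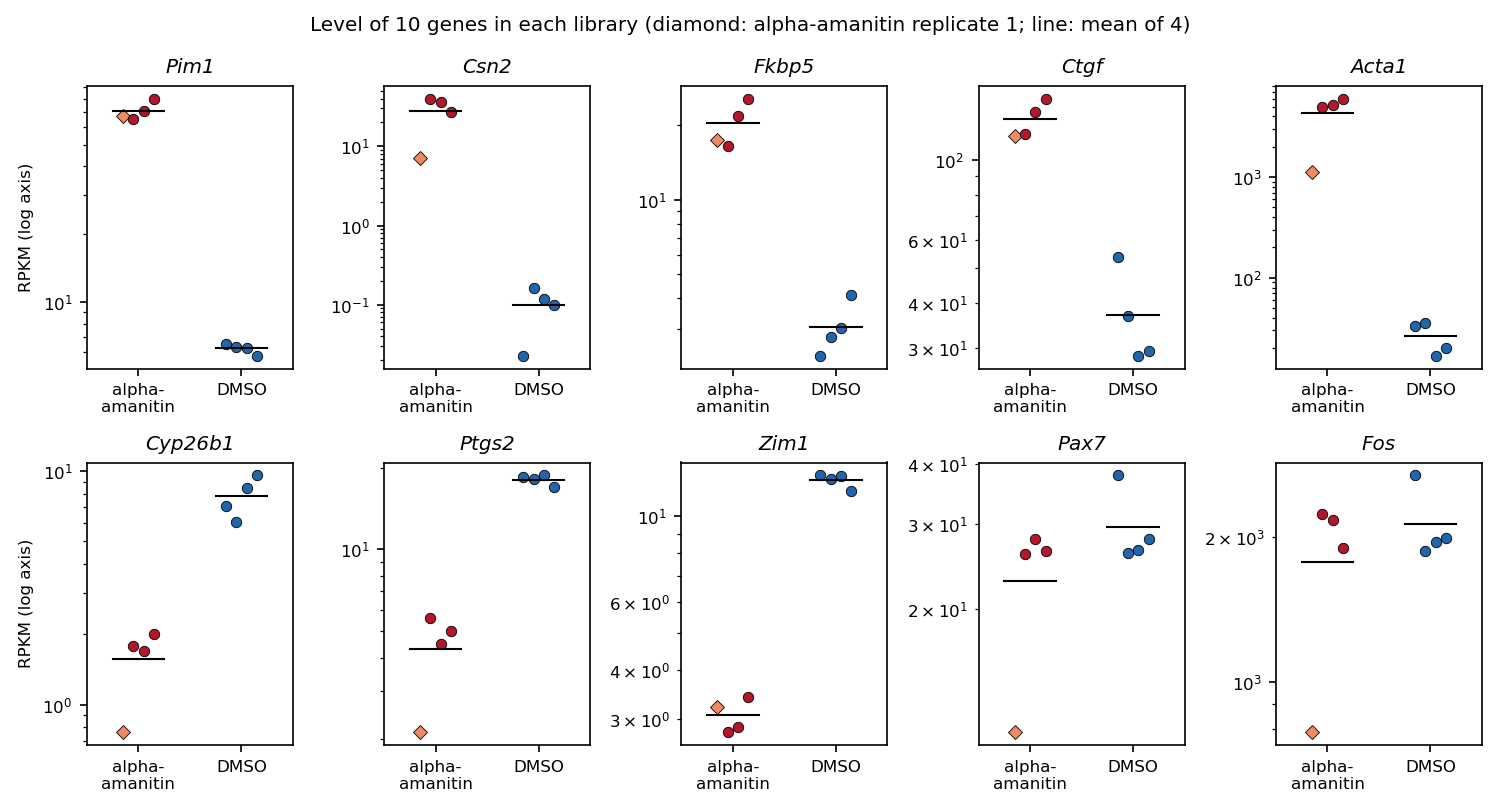
RPKM (log axis) of 10 genes in each alpha-amanitin and DMSO library, with alpha-amanitin replicate 1 as a diamond. Pim1 and Fkbp5 are higher and Zim1 lower in all alpha-amanitin libraries with little spread, Csn2 and Acta1 are higher with replicate 1 lowest, and Fos and Pax7 overlap.

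Many genes that respond to glucocorticoids rose. Fkbp5, a co-chaperone of the glucocorticoid receptor and a standard target of the hormone, had 17.4, 16.5, 21.9 and 25.6 RPKM with alpha-amanitin, against 2.35, 2.80, 3.05 and 4.11 RPKM with DMSO. Zbtb16, a zinc finger repressor induced by the hormone, had 19.1, 12.4, 16.7 and 19.4 RPKM with alpha-amanitin, against 6.19, 4.83, 3.85 and 4.02 RPKM with DMSO. Replicate 1 lay within its group for both, and neither overlapped. Fkbp5 rose by 2.54 ± 0.20 and Zbtb16 by 1.74 ± 0.20. The transcription factor gene Klf9, with 106, 180, 213 and 214 RPKM with alpha-amanitin, against 44.3, 51.0, 61.6 and 74.9 RPKM with DMSO, rose by 1.59 ± 0.27, and Tsc22d3, which encodes the leucine zipper GILZ, by 1.94.

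Of 19 glucocorticoid and metallothionein genes, 13 rose and none fell (background 33.9% and 10.3%), with a median of 1.16, and of -0.38 with the mitochondrial scaling. The 13 included Sgk1, a serum- and glucocorticoid-induced kinase (1.24), Foxo1 (1.16) and Foxo3 (0.95), the phosphatase gene Dusp1 (0.99) and the metal-binding Mt1 (1.40) and Mt2 (0.91). Of the list, 13 genes were not muscle-enriched and 8 of these rose, against 17.3% of all remaining genes. Fkbp5 is muscle-enriched, with 25.3 RPKM in whole muscle and 6.55 RPKM in isolated stem cells, and its rise was still 2.45 after subtraction of whole-muscle RNA. Trim63 (3.94) and Fbxo32 (1.73), ubiquitin ligases of muscle wasting, are far more muscle-enriched, and Fbxo32 turned to -1.36 under that subtraction.

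BMP and TGF-beta feedback genes rose in 10 of 18 cases (background 33.9% higher). Id1, an inhibitor of DNA-binding factors and a direct BMP target, had 85.4, 149, 152 and 141 RPKM with alpha-amanitin, against 59.9, 62.5, 47.7 and 45.0 RPKM with DMSO. Id4, its relative, had 2.44, 4.34, 5.89 and 6.09 RPKM with alpha-amanitin, against 0.739, 1.14, 0.787 and 1.52 RPKM with DMSO. Neither overlapped, and replicate 1 was lowest of its group for both. Id4 rose by 1.71, Smad7, an inhibitory Smad, by 1.59, Bmp6, a ligand, by 1.48, Smad6 by 1.39, Id1 by 1.26 and Id2 by 1.18. Skil, a repressor of Smad signalling, fell by 0.78. The median of 0.95 was below 0 only with the mitochondrial scaling among the scalings tried (-0.55).

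Gal and Npy, a pair of neuropeptide genes, rose. Gal, the precursor of galanin (chromosome 19, 3409919 to 3414472), had 1606, 1788, 2061 and 2135 RPKM with alpha-amanitin, against 599, 555, 419 and 427 RPKM with DMSO. Npy, neuropeptide Y, had 9.15, 7.81, 8.18 and 10.4 RPKM with alpha-amanitin, against 2.57, 2.24, 1.52 and 1.12 RPKM with DMSO. All 4 alpha-amanitin libraries were above all 4 with DMSO, replicate 1 included, with rises of 1.93 ± 0.19 and 2.03 ± 0.21. Both were more abundant in isolated stem cells than in whole muscle, at 558 and 4.14 RPKM for Gal and 2.61 and 0.0486 RPKM for Npy. Gal and Npy were chosen after their values were seen.

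Immediate early genes, which cells switch on within minutes of stress without new protein, did not move as a block. Of 39 tested, 14 rose, near the background of 33.9%, and 3 fell (background 10.3%), with a median of 0.35 that turned to -0.16 with all reads, -1.25 with the mitochondrial scaling and -0.08 with the GC trend removed, where 9 rose and 12 fell. Fos, the AP-1 founder, had 788, 2239, 2176 and 1896 RPKM with alpha-amanitin, against 2689, 1870, 1954 and 1993 RPKM with DMSO. It was not called (-0.36 ± 0.32, adjusted p = 0.357), and without replicate 1 the difference was -0.00 (adjusted p = 0.985 in limma). With library sizes from all reads Fos was called lower (-0.87, adjusted p = 0.00424 in limma). Jun (-0.15) and Egr1 (0.00) were not called either. Both were called lower with the GC trend removed (-0.69 and -0.68) and with all reads. Against fixed cells these 3 genes were higher in unfixed cells by 5.77, 4.56 and 6.31.

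Members that passed the test went both ways. Egr2 (-0.63), Egr3 (-0.66) and the kinase gene Sik1 (-0.68) fell. Arc, an activity-regulated cytoskeletal gene, had 12.9, 21.2, 25.6 and 23.7 RPKM with alpha-amanitin, against 7.21, 5.38, 4.99 and 5.44 RPKM with DMSO (1.74 ± 0.23). Ctgf, a matrix protein and target of YAP, had 117, 118, 136 and 148 RPKM with alpha-amanitin, against 53.8, 36.7, 28.6 and 29.4 RPKM with DMSO (1.83 ± 0.23). Klf4, a zinc finger factor, had 52.99, 81.0, 93.7 and 103 RPKM with alpha-amanitin, against 26.99, 30.3, 32.4 and 38.2 RPKM with DMSO (1.32 ± 0.24). The groups of Arc, Ctgf and Klf4 did not overlap.

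As a share of all reads, immediate early genes took 3.84, 4.82, 4.92 and 4.6% with alpha-amanitin, against 5.88, 5.58, 5.89 and 6.03% with DMSO. The means were 4.54 ± 0.489% and 5.85 ± 0.192% (SD, n = 4 each, exact permutation p = 0.0286). As a share of reads outside muscle-enriched genes the difference was -0.74 percentage points (exact permutation p = 0.114). In the library labelled alpha-amanitin replicate 1, 23 of the 39 genes lay below all DMSO libraries and 7 above them, against 31.4% and 30.5% of all genes. In replicates 2 to 4 together, 4 lay below and 23 above, against 24.7% and 52.5% of all genes, so the count above was near the background.

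Heat shock genes rose in 11 of 31 cases, near the 33.9% over all genes tested, with none lower and a median of 0.57 that was -1.04 with the mitochondrial scaling. The steepest risers were small heat shock proteins of muscle. Hspb7 (4.44), Hspb6 (4.38), Hspb2 (2.04) and Cryab (1.91) are muscle-enriched, and Cryab had 333, 860, 854 and 766 RPKM with alpha-amanitin, against 243, 177, 145 and 146 RPKM with DMSO. Of 23 members that are not muscle-enriched, 5 rose, near the 17.3% of all remaining genes. Hspa1a, the inducible Hsp70, had 780, 2910, 2778 and 2344 RPKM with alpha-amanitin, against 1674, 1065, 1003 and 1088 RPKM with DMSO. Replicates 2 to 4 lay above all DMSO libraries and replicate 1 lay below them. The gene was not called with all libraries (0.73, adjusted p = 0.143) and was called without replicate 1 (1.17, adjusted p = 2.68e-05 in limma).

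Markers of the stem cells themselves showed no common direction. Pax7 had 11.04, 26.004, 27.99 and 26.3 RPKM with alpha-amanitin, against 37.9, 26.1, 26.5 and 27.98 RPKM with DMSO. Replicate 1 of each group lay apart, at opposite ends, and the gene was not called (-0.44 ± 0.30, adjusted p = 0.226). It was called lower with the GC trend removed (-0.96, adjusted p = 0.00318 in limma). Of 35 satellite cell genes, 6 rose and 3 fell (background 33.9% higher and 10.3% lower), with a median of -0.01 that was above 0 with the ratio scaling on remaining genes and with the chemoreceptor level subtracted. Summed over the list they had 3169, 4673, 5154 and 5207 RPKM with alpha-amanitin, against 5138, 3628, 3462 and 3631 RPKM with DMSO.

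Within that list Megf10, Myf5 (-0.64) and Pax3 (-0.47) fell. Myf5, the earliest myogenic factor, had 60.3, 76.7, 73.9 and 89.1 RPKM with alpha-amanitin, against 169, 104, 98.6 and 104 RPKM with DMSO, with no overlap, and was not called with the GC trend removed (adjusted p = 0.229 in limma). Chrdl2, a BMP antagonist, had 226, 509, 500 and 461 RPKM with alpha-amanitin, against 150, 161, 176 and 191 RPKM with DMSO, and rose by 1.25 ± 0.27. Gas1 (1.46), the heparan sulphate proteoglycan gene Sdc3 (1.30), Bmp4 (1.11), Foxo3 (0.95) and Cdh4 (0.60) rose. Both directions were thus present among genes of the resting cell.

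Myogenic regulators and differentiation genes rose in 15 of 22 cases (background 33.9%) with 1 lower, Six4 (-0.50), and a median of 0.92 (-0.62 with the mitochondrial scaling). Myod1, the commitment factor, had 202, 254, 296 and 293 RPKM with alpha-amanitin, against 223, 153, 98.2 and 109 RPKM with DMSO. One DMSO library lay inside the alpha-amanitin range, the rise was 0.90 (adjusted p = 0.028), and it was not called with the GC trend removed (0.11, adjusted p = 0.742 in limma). Actc1 (4.83), Mybph (4.38) and Myf6 (3.19), which mature fibres express, are strongly muscle-enriched. Of the 12 members that are not muscle-enriched, 7 rose, against 17.3% of all remaining genes.

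Of 12 genes of CDK inhibitors and D cyclins, 6 rose and none fell (background 33.9% and 10.3%). Cdkn1a, the CDK inhibitor p21, had 337, 425, 463 and 452 RPKM with alpha-amanitin, against 229, 180, 161 and 181 RPKM with DMSO (1.16 ± 0.19). Cdkn1c, the CDK inhibitor p57, had 54.4, 130, 134 and 126 RPKM with alpha-amanitin, against 20.4, 18.97, 22.96 and 24.9 RPKM with DMSO (2.24 ± 0.29). Gdf15, a secreted stress protein, had 7.86, 26.1, 27 and 23.6 RPKM with alpha-amanitin, against 5.99, 4.88, 4.80 and 5.18 RPKM with DMSO (1.78 ± 0.35). None of the 3 overlapped, with replicate 1 always nearest to DMSO. Of 24 p53 targets, 11 rose and 2 fell (background 33.9% higher and 10.3% lower), Trp53inp1 (-0.69) and Rrm2b (-0.40), with a median of 0.56 that was -1.04 with the mitochondrial scaling. Ccng1 (2.21) and Phlda3 (2.11) are muscle-enriched, as is Cdkn1c. Of 16 members that are not muscle-enriched 5 rose, against 17.3% of all remaining genes.

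Cell cycle genes rose as well, 14 of 24 with none lower (background 33.9% higher and 10.3% lower), with a median of 0.62, and of -0.81 with the mitochondrial scaling. Cdc20, an activator of the anaphase-promoting complex, had 2.63, 8.11, 7.37 and 6.75 RPKM with alpha-amanitin, against 2.63, 1.59, 1.58 and 1.72 RPKM with DMSO, so that replicate 1 of each group had the same value to 3 digits. Ccnb2, a mitotic cyclin, had 2.98, 6.79, 6.76 and 6.18 RPKM with alpha-amanitin, against 2.89, 2.11, 2.73 and 2.48 RPKM with DMSO. Levels were low throughout: 4 members with alpha-amanitin and 8 with DMSO had a mean under 1 RPKM.

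**Figure D4:**
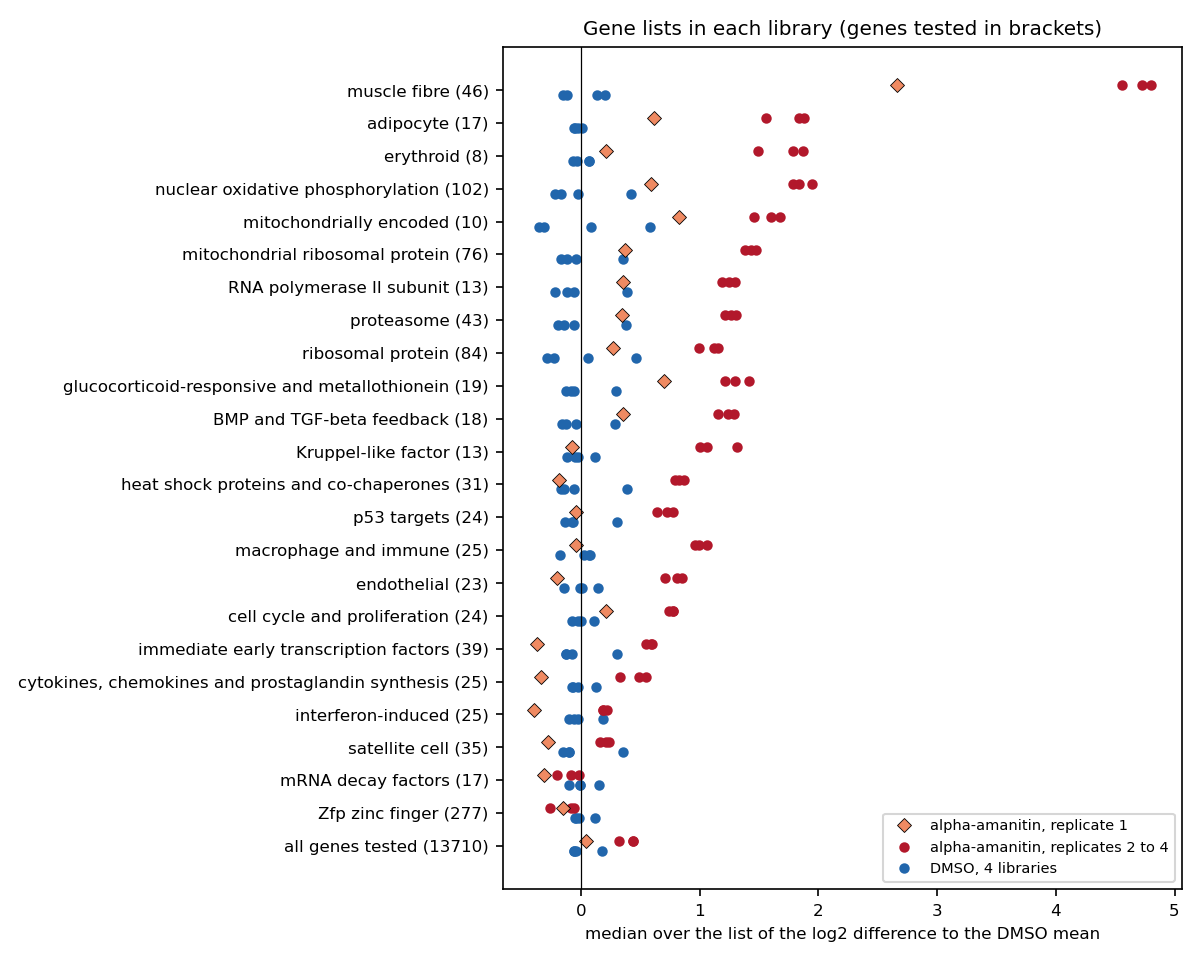
Median log2 difference to the DMSO mean of 23 gene lists and of all genes tested in each alpha-amanitin and DMSO library. Fibre genes lie at 2.66 in alpha-amanitin replicate 1 and at 4.56 to 4.80 in replicates 2 to 4, whereas immediate early genes lie at -0.37 in replicate 1 and 0.55 to 0.60 in replicates 2 to 4.

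The change of a gene went with the base composition of its transcript. Remaining genes were split into 5 equal groups by GC content of the longest annotated transcript, which was known for 13585 of 13710 genes (99.1%). From lowest to highest GC, the median log2 change was -0.53, -0.30, -0.18, 0.11 and 0.53. In the lowest group, at 30.8 to 42.8% GC, 5.03% of genes rose and 27.04% fell, and in the highest, at 54.2 to 73.7% GC, 41.8% rose and 2.46% fell. Per library, the highest group lay above the lowest by -0.07, 1.38, 1.40 and 1.27 with alpha-amanitin, and by 0.34, -0.13, -0.18 and 0.03 with DMSO. The trend was thus present in replicates 2 to 4 and not in replicate 1. With a smooth GC trend removed in each library, 27.8% of genes were called higher and 13.4% lower (41.2% in all).

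**Figure D5:**
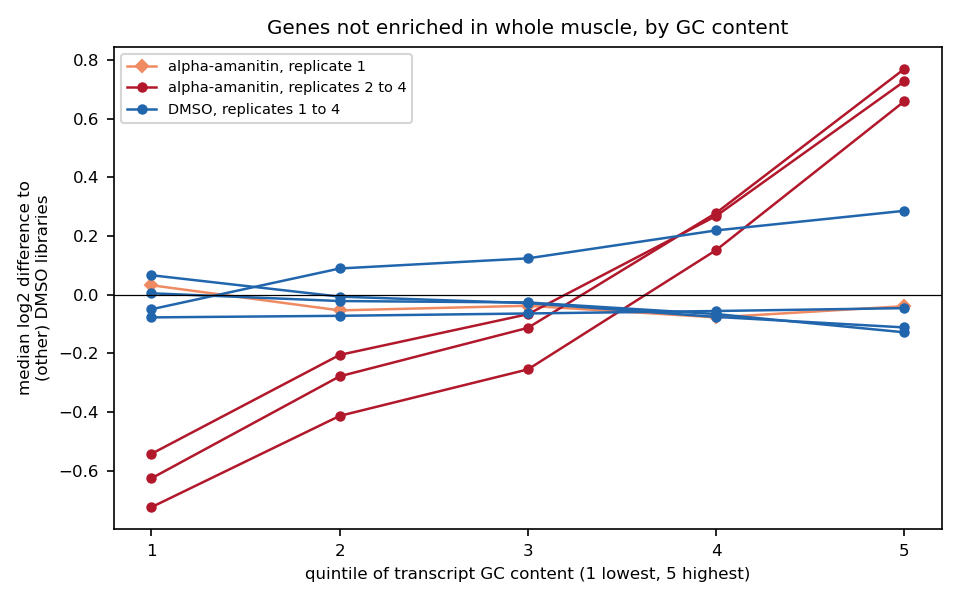
Median log2 difference to the DMSO libraries, each DMSO library being set against the other DMSO libraries, in 5 groups of remaining genes ordered by transcript GC content, with 1 line per library. Alpha-amanitin replicates 2 to 4 climb by 1.27 to 1.40 between the end groups, while replicate 1 and the DMSO libraries change by at most 0.34.

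Length and level went with the change too. Across 5 groups of gene model length, from shortest to longest, the medians of remaining genes were -0.79, 0.23, 0.16, -0.06 and -0.25, and 29% of the longest genes fell. Across 5 groups of mean RPKM, from lowest to highest, they were -0.79, -0.32, -0.01, 0.15 and 0.41. With the chemoreceptor level subtracted, 37.4% of genes were called higher and 1.08% lower (38.5% in all). The largest falls without replicate 1 lay among genes of the chemoreceptor pattern. Smok2b, a sperm motility kinase, had 9.40, 0.733, 0.371 and 0.325 RPKM with alpha-amanitin, against 4.74, 7.63, 7.75 and 6.80 RPKM with DMSO. Mucl2, a mucin-like gene, had 7.46, 0.423, 0.347 and 0.456 RPKM with alpha-amanitin, against 5.31, 5.05, 6.82 and 4.42 RPKM with DMSO. Replicate 1 was above all DMSO libraries in both genes and replicates 2 to 4 were far below.

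Alpha-amanitin replicate 1 was then placed on the calls made without it. Among 3240 remaining genes higher in replicates 2 to 4, the median log2 difference to DMSO was 0.73 there and 0.07 in replicate 1. Replicate 1 lay beyond all DMSO libraries on the same side for 860 of them (26.5%) and on the opposite side for 729. At a mean of 5 RPKM or more it lay on the same side for 472 of 2047 (23.1%). Among 3233 that were lower, the medians were -0.998 in replicates 2 to 4 and 0.03 in replicate 1, which lay on the same side for 1244 (38.5%) and on the opposite side for 1281. Of the 493 lower genes at a mean of 5 RPKM or more it lay on the same side for 461 (93.5%). Over all genes tested, replicate 1 lay above all DMSO libraries in 30.5% and below them in 31.4%. The shares of 26.5% and 38.5% were thus near background. That background was not computed at 5 RPKM or more. Most falls called at higher levels lay on the same side in replicate 1, whereas most falls at low levels and most rises at any level did not. Without the background at 5 RPKM or more, this contrast cannot be read as a trait of the falls.

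Genes were also counted that were called with the same sign in 7 settings and showed no overlap between the groups. The settings were the values as deposited, those without replicate 1, with the GC trend removed, with the chemoreceptor level subtracted, with whole-muscle RNA subtracted, with all reads, and with ratio factors from the remaining genes. Over all genes tested, 9.43% met this for a rise and 0.598% for a fall. Among the remaining genes 329 rose and 82 fell, and among muscle-enriched genes 964 rose and 0 fell, where limma on the deposited values gave 16. The 964 hold 15 fibre genes, Ckm, Myh4 and Acta1 among them, as the subtraction did not remove all fibre RNA. The 82 falls include Cyp26b1, Rarb, Ptgs2, Zim1, Peg3, Zfp146, Gbp2b, Slfn5, Hmgcs1, Notch2, Rbpj, Megf10, Prox1, Lepr and Rel. The 329 rises include Pim1, Csn2, Csn1s2a, Csn3, Gal, Npy, Neu2, Zbtb16, Klf9, Id1, Id2, Id4, Smad7, Ctgf, Arc, Klf4, Cdkn1a and Gdf15. The mitochondrial scaling is not among the 7 settings. It called 13269 of 15215 genes tested lower, with an all-gene median of -1.20, so a fall was likely to stay a fall there. With it all 82 falls were called lower, whereas of the 329 rises 82 lay above 0, 21 of them called, and 247 lay below 0, 136 of them called lower. Pim1, Csn2, Csn1s2a, Csn3, Npy and Neu2 were still called higher there, Id1 (-0.35), Id2 (-0.43) and Cdkn1a (-0.46) were called lower, and the other genes just named were not called.

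By list, 8 of 19 glucocorticoid genes, 7 of 18 BMP and TGF-beta genes and 6 of 39 immediate early genes rose in all 7 settings, with none falling. Of 15 retinoic acid genes 1 rose and 2 fell, of 19 NF-kB genes 1 and 2, of 25 Notch genes 4 and 2, and of 35 satellite cell genes 2 and 1. Over all genes tested 9.43% rose and 0.598% fell in all 7 settings. The 82 falling genes had long models (median 7066 bases) of low GC content (43.9%) spread over 61.7 kb of genome. The 329 rising genes had 2762 bases, 53.2% and 14.3 kb, and all 9046 remaining genes 3856 bases, 48.3% and 26.6 kb. Mean levels of the falling and rising genes were alike, with medians of 11.7 and 13.2 RPKM, against 3.68 RPKM for all remaining genes.

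The last comparison asked whether genes affected by the inhibitor are those transcribed during isolation. RNA labelled with 4tU during isolation was set against total RNA of isolated stem cells, with 29.8% of 14863 genes higher in the label and 29.7% lower (59.5% in all). Of 1038 remaining genes higher in the labelled RNA, 612 (59.0%) rose with alpha-amanitin and 7 fell. Of 3965 genes lower there, 209 rose and 962 (24.3%) fell. Over all remaining genes 17.3% rose and 15.4% fell. With the GC trend removed the counts were 376 and 40, and 196 and 1043. With the chemoreceptor level subtracted they were 576 and 0, and 183 and 108, so falls no longer outnumbered rises among genes lower in the label. In that setting 37.4% of all genes were higher and 1.08% lower. Across 8852 genes Spearman's correlation between both changes was 0.57 and Pearson's r was 0.58, and the first was 0.41 with the GC trend removed. These are descriptions across genes, which are not independent replicates. The genes higher in the label had a median GC content of 53.6%, and those lower 45.8%. The labelled libraries also held fibre RNA at 6.89 to 28.3% of whole muscle, and the part of this in the relation was not tested. Of the 82 falling genes 81 were tested in the label, 76 of them were lower there and 0 higher, with a median of -1.48.

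Cells of unfixed mice were set against those of fixed mice, where 10.8% of 12816 genes were higher in unfixed cells and 12.2% lower (23% in all). Of 1124 remaining genes higher in unfixed cells, 269 rose with alpha-amanitin and 128 fell. Of 590 genes lower in unfixed cells, 242 rose and 40 fell. Spearman's correlation between both changes was -0.01 over all 7596 remaining genes tested in both. At a mean of 5 RPKM or more it was -0.18 over 3789 genes, and -0.21 without alpha-amanitin replicate 1. Of the 82 genes that fell in all 7 settings, 78 were tested, 34 were higher in unfixed cells and 2 lower. Of the 329 that rose, 319 were tested, 80 were higher and 44 lower. Ptgs2 (2.79), Slfn5 (3.31) and Lepr (1.98) were among those higher in unfixed cells and lower with alpha-amanitin, and Pim1 (4.06), Gal (2.79), Ctgf (4.37) and Neu2 (4.19) were higher in both.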

How the data were processed

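The data are the authors' deposited RPKM values (reads divided by gene model length in kilobases and by effective library size). Per the submitters' processing notes, the tools were edgeR, featureCounts (Subread), STAR and Trim Galore on build mm10, with versions not given in the sources used here. In the larger table the header stands 1 cell off from the values, which was corrected on reading; 0 value columns were left without a sample. RNA was reverse transcribed with oligo(dT), amplified for 13 to 15 cycles and read as 101 bp pairs, per the labels' protocols. Dividing by the value of 1 read gave whole numbers, to a tolerance of 0.1, for 100% of values, from which depths and scaling factors were taken. Library preparation copies molecules, so depth bounds counting error only.

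A gene was tested if 3 of the 8 libraries or more reached 1 RPKM. The test used log2(RPKM + 0.5), computed from the deposited values, in limma 3.58.1 (R 4.3.3), the moderated test with a mean trend and Benjamini-Hochberg adjustment over all genes. Errors of log2 changes are standard errors. RPKM is no count, so limma-voom on the recovered reads was an alternative; it called 4445 genes higher and 1813 lower. Read shares were compared with exact two-sided permutation tests. Tables used Python 3.11.15, numpy 2.4.6, pandas 2.3.3, scipy 1.17.1 and matplotlib 3.10.9, and the fit was tested on simulated data. Of 16979 genes, 1488 had no symbol and 1350 of these were named from GENCODE. GC content is that of the longest GENCODE transcript on GRCm38. Counting by strand is not stated, so overlapping genes may share reads.

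The genes described, the 46 lists and the split by whole muscle were chosen with earlier results of these data known. Named genes had to be called, to reach a mean of 5 RPKM in the group where they were higher, and to separate the groups. They were the 12 largest rises and falls of the remaining genes, the 6 of muscle-enriched genes, the 6 of remaining genes without alpha-amanitin replicate 1, and per list the 4 such members or fewer with the lowest adjusted p. Acta1, Polr2a, Fos, Egr1, Jun, Hspa1a, Myod1, Pax7 and Myf5 were named whatever their result. Other genes were named after their values were seen, and some genes are not reported here. Replicate numbers did not pair the libraries. Alternatives changed scaling, filters, pseudocount, test, class ratio, libraries and reference; GC, chemoreceptor and 5 RPKM settings were added after seeing the data.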

Additional observations from a re-analysis of the deposited data

Results flagged for a closer look

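In 52 of 248 groups of 4 libraries, the highest or lowest library lay far from the nearest of the others. The gap, divided by the group's range, passed Dixon's 95% critical value. Chance gives this in about 1 in 20 groups if they are independent and not chosen by their values. Many groups here were genes named from these same values, and the genes share libraries and scaling factors. The count of 52 can therefore not be set against that rate. Of the 52, 28 were alpha-amanitin replicate 1, 21 were DMSO replicate 1 and 3 were other libraries. Some of the genes, Smok2b, Smok2a, Mucl2 and Zakit among them, were named from the fit without alpha-amanitin replicate 1. That choice can favour genes in which this library stands apart. No cause was tested.

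Alpha-amanitin replicate 1 lay below the other 3 libraries of its group for Mtch1 (28.6 RPKM), Ptms (25.6), Jund (327), Ckm (255), Id1 (85.4), Hspb7 (6.03), Phlda3 (19.9), Cdkn1c (54.4), Bcl2l1 (5.44), Ccnb2 (2.98), Polr2k (9.21), Adipoq (2.60), ND1 (1061), Psmb3 (26.7), Klf15 (5.92), Foxo3 (3.03), Bmp4 (36.2), Chrdl2 (226), Hba-a1 (40.5), H19 (2.85) and Pax7 (11.04). It also held the lowest share of reads of muscle-enriched genes, 26.1%. It lay above the others for Smok2b (9.40 RPKM), Igkv4-92 (16.4), Smok2a (8.88), Mucl2 (7.46), Zakit (13.4) and the median of chemoreceptor genes (2.03).

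DMSO replicate 1 lay above the other 3 DMSO libraries for Hmgcs1 (119 RPKM), Ncoa7 (36.3), Rbpj (42.0), Cyld (7.04), Slc7a2 (13.0), Btg2 (1108), Ube3a (20.1), Klhl24 (18.4), Socs2 (7.26), Hspa1a (1674), Ccng1 (15.9), Bcl2l1 (4.55), Cdc20 (2.63), Polr2a (22.8), Pax7 (37.9), Myf5 (169), Fos (2689), Egr1 (2864), Peg3 (68.6), Abca8b (54.0) and Prox1 (36.97). Notch2 was low in alpha-amanitin replicate 2 (6.67 RPKM), Jdp2 high in DMSO replicate 4 (7.96 RPKM) and Myh4 high in DMSO replicate 2 (4.87 RPKM).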

How the results depend on the processing

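Of 245 values recomputed for the comparisons, 119 stayed within 1.5 times or on the same side of the threshold, and of 2562 values of 118 named genes 2415 did, 115 lost the call, 18 gained it and 14 changed sign. These exclude the mitochondrial scaling, with which 19 of 73 named genes that rose lay below 0, 10 of them called lower, and all 37 that fell were called lower. That scaling called 13269 of 15215 genes tested lower. Counts of called genes moved most, and unless stated the cause was not tested.

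Genes called higher numbered 281 with the mitochondrial scaling, and 2317 to 7367 with 1 library left out. Genes called lower numbered 2243 with median of ratios, 752 with such factors from the remaining genes, 4206 with all reads, 13269 with the mitochondrial scaling, 3125 with all groups in 1 fit, 123 with the chemoreceptor level subtracted, 365 at a mean of 5 RPKM or more, where fewer genes were tested, and 511 to 3293 with 1 library left out.

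In the remaining genes, those higher numbered 2782 with ratio factors from these genes, 809 with all reads, 21 with the mitochondrial scaling, 2486 with all groups in 1 fit, 2464 with the class at 4-fold, which adds genes to it, and 609 to 3240 with 1 library left out. Those lower numbered 2164, 747, 3792 and 10027 with median of ratios, its remaining-gene form, all reads and the mitochondrial scaling, 3074 with all groups in 1 fit, 123 with the chemoreceptor level subtracted, 361 at 5 RPKM or more, and 506 to 3233 with 1 library left out.

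Of muscle-enriched genes, 260 were higher with the mitochondrial scaling, 1961 after whole-muscle RNA had been subtracted, and 1664 to 4127 with 1 library left out. Those lower numbered 79, 5, 414 and 3242 with the same 4 scalings, 51 with all groups, 108 with whole-muscle RNA subtracted, 44 with the GC trend removed, 0 with the chemoreceptor level subtracted, 4 at 5 RPKM or more, 4 and 46 with the class at 4-fold and 1.5-fold, and 5 to 60 with 1 library left out.

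Without alpha-amanitin replicate 1, all reads gave 3989 higher and 7221 lower (1113 and 6550 in remaining genes), 5 RPKM or more gave 4757 and 519 (2093 and 512), and the chemoreceptor subtraction gave 446 lower (445). For unfixed against fixed cells, leaving out 1 library gave 718 to 1563 higher and 809 to 1821 lower.

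With the replicate number as a block, 1678 genes were higher and 300 lower (460 and 298 in remaining genes, 1218 and 2 in muscle-enriched genes). Same-numbered libraries did not deviate together: their correlations were -0.59, -0.40, -0.57 and -0.11, and alpha-amanitin replicates 1 to 4 correlated best with DMSO replicates 3, 1, 1 and 1.

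Hspa1a turned to -0.0609 with the GC trend removed, and Fbxo32 to -1.36 and Tcea3 to -2.28 with whole-muscle RNA subtracted. Jun turned to 0.0855 with remaining-gene factors and ran over -0.303 to 0.19 with 1 library left out, the highest without alpha-amanitin replicate 1. Egr1 turned to -0.15 with median of ratios, -0.51 with all reads, -0.68 with the GC trend removed, and ran over -0.0938 to 0.208 with 1 library left out, the highest without alpha-amanitin replicate 1.

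Differences in read shares ran over 2.98 to 3.98 points for fibre genes, 9.75 to 12.1 for muscle-enriched genes, 0.482 to 0.575 for mitochondrially encoded genes and -1.43 to -1.07 for immediate early genes with 1 library left out, each at an exact permutation p of 0.0571, the smallest that 4 against 3 can give. Outside muscle-enriched genes the immediate early difference was -0.74 points. The mean DMSO fibre level was 0.179% from sums in place of 0.158% from medians. A share of muscle-enriched genes outside themselves could not be computed.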

Other observations

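Gene models that hold copies of major satellite repeats took more reads with alpha-amanitin. Summed over 6 models (Gm10800, Gm10801, Gm21738, Gm10722, Gm10718 and Gm26870), their share of reads was 2.45, 3.97, 2.57 and 2.83% with alpha-amanitin, against 0.168, 0.278, 0.298 and 0.209% with DMSO. The means were 2.96 ± 0.694% and 0.238 ± 0.0604% (SD, n = 4 each), with no overlap. The models are near-identical copies, so the split of reads among them is uncertain, and they were chosen after their values were seen.

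Genes of blood cells and an imprinted long RNA gave further values. Hba-a1, an alpha-globin gene that shares reads with its near-identical copy, had 40.5, 130, 140 and 124 RPKM with alpha-amanitin, against 26.8, 23.04, 24.8 and 24.4 RPKM with DMSO. The neutrophil granule genes Ngp and Lcn2 rose by 1.68 and 1.51, and 6 of 11 genes of that list rose with none lower. H19, an imprinted long RNA, rose by 1.60. The cholesterol, leptin and retinoic acid genes that fell were all at or below 119 RPKM, whereas Btg2, an antiproliferative gene with 343, 504, 574 and 573 RPKM with alpha-amanitin, against 1108, 731, 730 and 771 RPKM with DMSO, fell by 0.75 at a far higher level. The Btg2 call stayed in 11 of 22 alternatives. It was lost with ratio factors from the remaining genes (adjusted p = 0.0857 in limma).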
